A study of Mus musculus with 12 samples.

Results

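The structural sarcomere proteins are the filament, titin, M-band and Z-disc components of the contractile unit of heart muscle, taken here without the myosin chains and actins. The set holds 33 genes of the 19938 genes measured, chosen by name and function with earlier results of these data known. Each gene was read from the probe set annotated to it alone, and for Nebl and Tmod1, which had 2 probe sets each, from the one with the highest mean over the arrays. The set was split by role into 7 thin filament regulators, 3 proteins that set or cap thin filament length, 5 proteins of titin, the M-band and the thick filament, 11 Z-disc proteins, and 7 intermediate filament, heat shock and assembly proteins.

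In the sarcomere, thin filaments are anchored at the Z-disc and slide past thick filaments that are tied together at the M-band, while titin spans from one to the other as a molecular spring. Calcium binding to troponin shifts tropomyosin on the thin filament and lets myosin heads attach, and myosin-binding protein C tunes how readily they do so. Z-disc proteins also carry mechanical signals, and many of the genes in the set are mutated in inherited cardiomyopathies.

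All tissue came from hearts of male C57BL/6 mice, perfused with buffer and cut into left ventricle (LV), septum and right ventricle (RV). A clip was closed around the pulmonary artery (pulmonary artery clipping, PAC), which loads the RV, or around the aorta (transaortic constriction, TAC), which loads the LV. RNA from RV was hybridised to Affymetrix whole-transcript arrays at 1 week (mice aged 13 weeks), 3 weeks (15 weeks) and 6 weeks (18 weeks) after PAC and at 3 weeks after sham surgery (15 weeks). RNA from LV was taken at 3 weeks after TAC and at 3 weeks after sham surgery, both from mice aged 15 weeks. Each of the 6 groups had 2 arrays, so n = 2 throughout. The labels do not say whether the 2 arrays of a group came from separate mice, whether tissue was pooled, or whether sham RV and sham LV came from the same hearts, so p-values measure only the spread between these samples. All 3 PAC times are set against the same 2 sham arrays, taken at 3 weeks, and mice at 1 and 6 weeks of PAC therefore differ from sham in age and in time from surgery as well.

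Values are log2 expression levels, so a difference of 1 is a 2-fold change. They average probes along a gene, which leaves splice forms of one gene unresolved, and a level cannot be set against that of another gene because probes differ. Differences are given ± the standard error from limma, a linear model fitted to all genes and all 12 arrays that shares the estimate of spread between genes. A gene passed when its p, adjusted over all 19938 genes by the Benjamini-Hochberg method, was under 0.05. Arrays of 2 groups are said not to overlap when both arrays of one lie above both of the other. With 2 arrays on each side, the smallest p an exact permutation test allows is 0.33.

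The mean of 12 cardiomyocyte markers lay between 12.86 and 13.00 on all arrays, and 0 of them passed at any single PAC time, while 2, Ryr2 and Nkx2-5, were lower in the mean of the 3 PAC times. Their sarcomeric members Myh6 and Actc1 stood at 13.67 to 13.80 and 14.16 to 14.25. The 2 arrays of PAC at 1 week were the pair least alike (correlation 0.9917), with 4 members of the set more than 0.5 apart, against 0 members in each other pair. The mean of 8 atrial markers was 7.32 and 6.86 on the sham RV arrays, 8.99 and 10.16 at 1 week of PAC, 8.39 and 9.54 at 3 weeks, 8.21 and 8.68 at 6 weeks, 7.79 and 8.91 in sham LV, and 8.12 and 8.07 after TAC. Array 2 of PAC at 1 week, of PAC at 3 weeks and of sham LV exceeded its mate by more than 1 in these markers, and calls lost without these 3 arrays are named with the gene. Lists of non-muscle cells moved under PAC too. Of 8 fibroblast markers 6, 5 and 2 rose at 1, 3 and 6 weeks, of 8 macrophage markers 7, 0 and 0, and of 8 endothelial markers 2, 5 and 0. The part of these lists in the members' values was not tested. In bulk tissue, fewer cells of a type and less RNA per cell cannot be told apart.

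Promoters are shown for both myosin-binding protein C genes, whose levels rose under PAC, and for Tnnt1 and Synpo2, which fell. They come from the 250 bases before a transcript start in RefSeq, build GRCm38.p6, 5′ to 3′ on the gene's own strand. Bases that lie inside the gene's RefSeq span were left off, 30 for Mybpc3, 46 for Mybpc2, 19 for Synpo2 and 0 for Tnnt1. The bases left off are the last ones before the transcript start, and the distances given below include them. The window of Tnni3, the third gene that fell, has 190 of its 250 bases inside the gene and is not shown. Capitals mark matches, on either strand, to the M-CAT element (CATTCC, bound by TEAD factors), the E-box (CANNTG, bound by basic helix-loop-helix factors) and the MEF2 site (by name), all 3 known from muscle promoters. The Mybpc3 stretch lies at chr2:91117894-91118113 on the plus strand and holds a MEF2 match that begins 90 bases before the transcript start and is directly followed by an E-box at 80. The Mybpc2 stretch lies at chr7:44524716-44524919 on the minus strand, with an M-CAT match 62 bases and an E-box 157 bases before the start. The Tnnt1 stretch, at chr7:4515976-4516225 on the minus strand, holds 1 E-box, and Tnnt1 and Tnni3 are neighbours with 2329 bases between the genes. The Synpo2 stretch, at chr3:123236169-123236399 on the minus strand, holds a MEF2 match 236 bases and E-boxes 203 and 40 bases before the start.
Mybpc3: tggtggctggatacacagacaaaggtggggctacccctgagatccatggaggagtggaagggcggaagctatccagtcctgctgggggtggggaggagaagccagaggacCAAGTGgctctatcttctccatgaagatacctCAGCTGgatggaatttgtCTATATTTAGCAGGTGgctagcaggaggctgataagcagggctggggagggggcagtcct
Mybpc2: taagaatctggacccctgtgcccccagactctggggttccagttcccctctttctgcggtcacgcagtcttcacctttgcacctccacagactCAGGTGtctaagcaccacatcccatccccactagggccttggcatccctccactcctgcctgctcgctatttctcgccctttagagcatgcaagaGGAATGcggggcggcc
Tnnt1: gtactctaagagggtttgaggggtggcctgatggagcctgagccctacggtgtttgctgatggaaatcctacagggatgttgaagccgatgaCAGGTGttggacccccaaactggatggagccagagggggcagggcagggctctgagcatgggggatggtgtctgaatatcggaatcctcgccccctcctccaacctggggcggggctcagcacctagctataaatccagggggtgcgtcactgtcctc
Synpo2: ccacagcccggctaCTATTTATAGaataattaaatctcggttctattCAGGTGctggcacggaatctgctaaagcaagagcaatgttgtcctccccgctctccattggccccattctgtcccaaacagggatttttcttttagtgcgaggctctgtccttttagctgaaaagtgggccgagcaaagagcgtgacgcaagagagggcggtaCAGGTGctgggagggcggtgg

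RefSeq promoters were matched for 29 of the 33 genes, and Cryab, Myoz1, Tcap and Myom2 are named only. Over all genes with a promoter, 3.4% held a MEF2 match in the whole 250-base window before a transcript start, against 6 of 29 members of the set (Fhl2, Mybpc3, Myoz2, Synpo2, Synpo2l and Ttn). The CArG box, the binding sequence of serum response factor, was found in 1.6% of all genes and in Fhl2, Ldb3, Myom1 and Nebl. M-CAT matches stood in 9 of 29 members against 14.4% of all genes, E-boxes in 24 against 69.3%, and the GATA sequence AGATAA in 5 against 11.4%. Both strands were searched, and no position counts for more than one of these motifs in the promoters shown. A match is a description of letters, not of binding, and genes with a MEF2 match include one that rose (Mybpc3), one that fell (Synpo2) and one near 0 (Ttn).

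Under pressure load most of the set had a 95% interval within 0.5 of no change, as most genes measured did. The changes that passed were led by myosin-binding protein C. In the mean of the 3 PAC times against sham RV, 3 of the 33 genes were higher (Mybpc2, Mybpc3 and Pdlim5; 12.2% of all genes) and 3 were lower (Synpo2, Tnni3 and Tnnt1; 12.6% of all genes). These 6 calls compare with 24.8% of all genes called in this comparison, so a call was not more frequent in the set than among genes at large. The median difference of the set was 0.06, beside -0.05 over all genes. Of the 33 genes, 24 had a 95% interval within 0.5 of no change (71.2% of all genes) and 17 within 0.3 (29.3% of all genes). By single time, 4 members passed at 1 week, where 18.4% of all genes did, 3 of them higher (9.57% of all genes) and 1 lower (8.86%). At 3 weeks 1 member passed (5.76% of all genes), and it was higher (3.22%). At 6 weeks 3 members passed (9.25% of all genes), all of them higher (5.52%). With loess scaling of the arrays, 2 passed higher and 3 lower at 6 weeks. Over all 8 planned comparisons 7 members passed at least once and 26 never did (28% of all genes passed at least once), and Mybpc2 was the only member that both passed and changed at least 2-fold.

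As a reference for load, the slow myosin gene Myh7 rose by 1.47 ± 0.42 at 1 week, 1.80 ± 0.42 at 3 weeks and 2.70 ± 0.42 at 6 weeks of PAC (limma adjusted p = 0.039, 0.040 and 0.010). Nppa, the atrial natriuretic peptide gene and itself 1 of the 8 atrial markers, rose by 2.48, 2.49 and 2.47 (± 0.38 each). After TAC these genes stood at 0.76 ± 0.42 and 0.33 ± 0.38 and did not pass. For Nppa the sham LV array high in atrial markers had 13.00 and its mate 12.05.

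**Figure D1:**
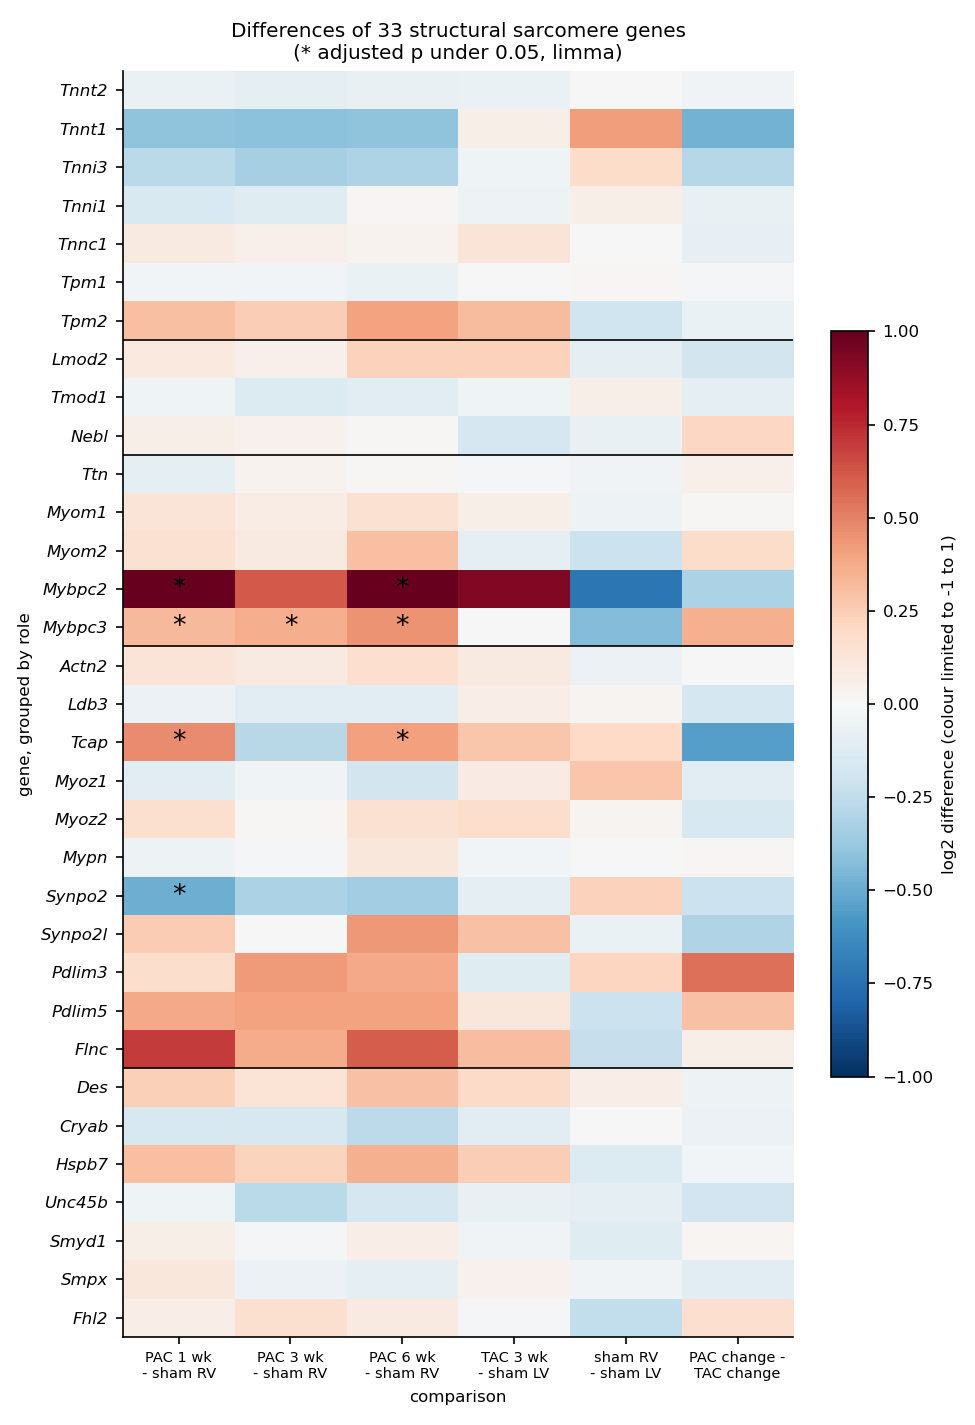
Log2 differences of the 33 structural sarcomere genes (rows, grouped by role) in 6 comparisons (columns), with colour limited to the range from -1 to 1 and an asterisk where the limma adjusted p was under 0.05. Mybpc2 carries the deepest colour, Mybpc3 is marked at all 3 PAC times, and no cell is marked in the TAC, chamber or difference columns.

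Mybpc2 encodes the fast-type myosin-binding protein C, best known from fast skeletal fibres. Its level was 6.77 and 6.97 on the 2 sham RV arrays, 8.38 and 9.12 at 1 week of PAC, 7.46 and 7.51 at 3 weeks, and 7.97 and 8.25 at 6 weeks. On the LV side it was 7.65 and 7.55 in sham and 8.64 and 8.40 after TAC. Both sham RV arrays lay below all 10 others, the 3 PAC times did not overlap one another, and the TAC arrays lay above the sham LV arrays.

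The rise was 1.88 ± 0.20 at 1 week (3.69-fold, limma adjusted p = 0.00288), the 12th smallest p of all genes in that comparison. It was 1.24 ± 0.20 at 6 weeks (2.36-fold, adjusted p = 0.0103), while the 3 week difference of 0.61 ± 0.20 did not pass (adjusted p = 0.0824). The mean over the 3 times was 1.24 ± 0.16 (adjusted p = 0.00349). The 1 week call and the call on the mean were kept in 19 of 19 alternative analyses. The 6 week call was lost without PAC 6 week array 2 (adjusted p = 0.12) and without sham RV array 1 (0.053) or array 2 (0.060).

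The dip at 3 weeks was not established as a change between times. The difference from 1 to 3 weeks, a comparison added after the values were seen, was -1.27 ± 0.20 (limma adjusted p = 0.0756), that from 3 to 6 weeks 0.63 ± 0.20 (adjusted p = 0.994), and that from 1 to 6 weeks -0.64 ± 0.20 (adjusted p = 0.298). In the LV under TAC the difference was 0.92 ± 0.20 (1.90-fold, unadjusted p = 0.00079, adjusted p = 0.985), again the 12th smallest p of all genes in its comparison, in which 0 genes passed. The PAC change less the TAC change at 3 weeks was -0.31 ± 0.28 (adjusted p = 0.652, 95% interval -0.94 to 0.31).

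Markers of skeletal muscle and atrium were read on the same arrays. The mean of 14 skeletal markers was 6.02 and 6.01 on the sham RV arrays and 5.78 to 5.90 on the 6 PAC arrays, and 0 of 14 rose at any PAC time while 3, 1 and 2 fell at 1, 3 and 6 weeks. Of the 14, 9 had a mean level below 5.79, the highest array median of unlisted probe sets, among them the fast myosins Myh1, Myh2 and Myh4 (4.54 to 5.88 on all arrays). The highest was the myosin light chain Myl1, at 7.61 and 7.24 in sham RV, 7.82 and 8.31 at 1 week of PAC, 7.78 and 7.94 at 3 weeks, and 7.17 and 7.48 at 6 weeks. Its 1 week difference of 0.64 ± 0.26 did not pass (limma adjusted p = 0.0966). In the RV, 7, 3 and 2 of 8 atrial markers were higher at 1, 3 and 6 weeks of PAC. From 1 to 3 weeks Mybpc2 differed by -1.27 ± 0.20 and the atrial markers by a median of -0.39. From 3 to 6 weeks the values were 0.63 ± 0.20 and -0.33, and from 1 to 6 weeks -0.64 ± 0.20 and -0.82. Without the 3 arrays high in them, the 1 week difference was 1.51 (adjusted p = 0.0157) and the mean over times 1.11 (adjusted p = 0.00809). The part of either list in the Mybpc2 values was not tested.

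Mybpc3, the cardiac myosin-binding protein C and a leading gene of hypertrophic cardiomyopathy, was the only member that passed at all 3 PAC times (3.20% of all genes did so). It measured 12.77 and 12.82 in sham RV, 13.18 and 13.06 at 1 week of PAC, 13.17 and 13.14 at 3 weeks, and 13.22 and 13.27 at 6 weeks. In the LV it measured 13.22 on both sham arrays and 13.20 and 13.26 after TAC. The sham RV arrays lay below all 10 others, and of the loaded RV arrays only those at 6 weeks reached the range of the LV arrays.

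The differences from sham RV were 0.32 ± 0.08, 0.36 ± 0.08 and 0.45 ± 0.08 at 1, 3 and 6 weeks (1.25-, 1.28- and 1.36-fold, limma adjusted p = 0.0253, 0.0344 and 0.0145), with a mean of 0.38 ± 0.07 (adjusted p = 0.00661). Sham RV was 0.43 ± 0.08 below sham LV, which missed the threshold at an adjusted p of 0.0503. TAC gave 0.01 ± 0.08 (95% interval -0.17 to 0.18), and the PAC change less the TAC change was 0.35 ± 0.11 (unadjusted p = 0.0099, adjusted p = 0.366), so a difference between the chambers' responses was not established. The 3 week call was lost in 10 of 19 alternatives, the 1 week call in 6 and the 6 week call in 3, with differences between 0.26 and 0.48 at every time. With only the arrays compared the 1 and 3 week calls were lost (limma adjusted p = 0.116 and 0.0725). Without sham RV array 1 the adjusted p was 0.086, 0.10 and 0.056 at the 3 times, and without array 2 it was 0.084, 0.12 and 0.070. The 1 week call was also lost without PAC 1 week array 1 (0.067) or 2 (0.072), and the 6 week call without PAC 6 week array 2 (0.14). The 3 week call was also lost without PAC 3 week array 1 (0.074) or 2 (0.20), either sham LV array (0.053) or either TAC array (0.059). Without the 3 arrays high in atrial markers the 1 and 3 week calls were lost (adjusted p = 0.11 and 0.16) with differences of 0.38 and 0.37. The call on the mean was lost in 1, without sham RV array 2 (adjusted p = 0.054).

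Titin and the M-band proteins had small differences that did not pass. Ttn, the giant spring protein, lay between 12.88 and 13.05 on all 12 arrays, and its mean PAC difference was -0.01 ± 0.06 (95% interval -0.15 to 0.12). Its M-band partners Myom1 and Myom2, the myomesins that crosslink thick filaments, differed by 0.12 ± 0.07 and 0.18 ± 0.09 and did not pass (limma adjusted p = 0.202 and 0.147). Myom2 was 12.17 and 12.16 in sham RV and 12.18 or more on the 10 other arrays, and its largest difference was 0.30 ± 0.11 at 6 weeks (adjusted p = 0.0976).

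**Figure D2:**
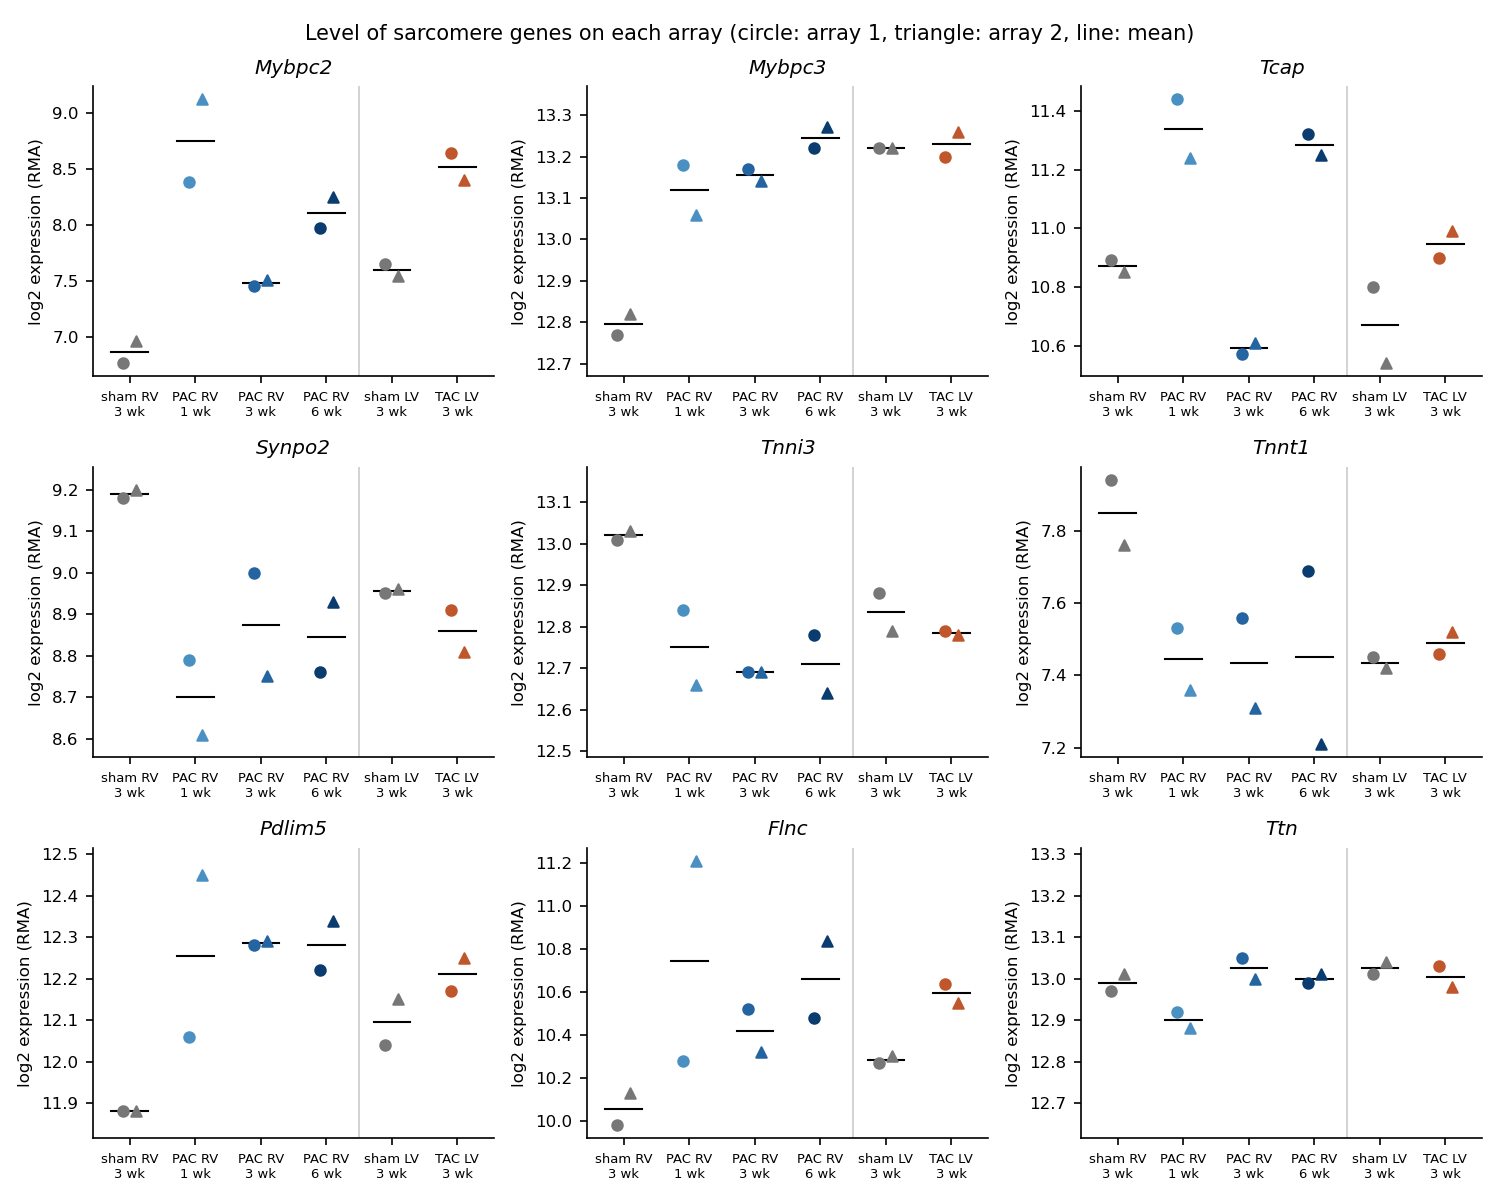
Log2 expression (vertical axis, a separate range for each gene) of 9 genes on every array, by group (horizontal axis), with a circle for array 1, a triangle for array 2 and a line at their mean. For Mybpc2, Mybpc3, Pdlim5 and Flnc both sham RV points lie below all other points, for Synpo2, Tnni3 and Tnnt1 above them, and Tcap at 3 weeks of PAC falls below sham RV while the other PAC times lie above it.

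Among the thin filament regulators, an inhibitory troponin and a slow-type troponin T fell in the PAC mean, and the other 5 did not pass. Tnni3, cardiac troponin I, is the subunit that blocks contraction until calcium binds. It was 13.01 and 13.03 in sham RV, 12.84 and 12.66 at 1 week of PAC, 12.69 and 12.69 at 3 weeks, 12.78 and 12.64 at 6 weeks, 12.88 and 12.79 in sham LV, and 12.79 and 12.78 after TAC. The sham RV arrays were the highest of all, and no PAC array reached them. The mean PAC difference was -0.30 ± 0.07 (limma adjusted p = 0.0187), and the single times of -0.27, -0.33 and -0.31 (± 0.09) did not pass (adjusted p = 0.0593, 0.0565 and 0.0562). The call on the mean was lost without sham RV array 1 (adjusted p = 0.078) or array 2 (0.12).

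Tnnt1, slow skeletal troponin T, was 7.94 and 7.76 in sham RV, 7.53 and 7.36 at 1 week of PAC, 7.56 and 7.31 at 3 weeks, 7.69 and 7.21 at 6 weeks, 7.45 and 7.42 in sham LV, and 7.46 and 7.52 after TAC. Here too the sham RV arrays lay above all 10 others, and the PAC arrays spread to both sides of the LV arrays. The mean PAC difference was -0.41 ± 0.12 (limma adjusted p = 0.0348), a call lost in 8 of 19 alternatives. Without sham RV array 1 it was -0.32 (adjusted p = 0.21) and without sham RV array 2 it was -0.49 (adjusted p = 0.11). It was also lost without PAC 1 week array 2 (0.058), PAC 3 week array 2 (0.069) or either TAC array (0.0503). Sham RV exceeded sham LV by 0.42 ± 0.15 (adjusted p = 0.160). Without the 3 arrays high in atrial markers the means were -0.27 for Tnni3 (adjusted p = 0.062) and -0.34 for Tnnt1 (adjusted p = 0.13). Under TAC Tnni3 stood at -0.05 ± 0.09 and Tnnt1 at 0.06 ± 0.15, and neither passed.

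The intervals of most partners of these 2 genes were narrow around 0. Tnnt2, cardiac troponin T, lay between 13.71 and 13.85 and differed by -0.08 ± 0.06 in the PAC mean (95% interval -0.21 to 0.06). Tnni1, slow skeletal troponin I of the fetal heart, lay between 6.15 and 6.52, close to the background of unlisted probe sets, with a difference of -0.09 ± 0.09. Tnnc1, the calcium-binding troponin C of heart and slow muscle, differed by 0.06 ± 0.07. Tpm1, the main cardiac tropomyosin, was the steadiest member with a span of 0.08 over the 12 arrays. Tpm2, a second tropomyosin, ranged from 6.95 to 7.73, with a mean difference of 0.32 ± 0.16 under PAC and 0.31 ± 0.19 under TAC (limma adjusted p = 0.149 and 0.985).

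The proteins that set thin filament length did not pass anywhere. Lmod2, leiomodin 2, which elongates thin filaments, stood at 0.23 ± 0.08 both at 6 weeks of PAC and after TAC (limma adjusted p = 0.0944 and 0.985). Tmod1, the tropomodulin that caps the pointed end, differed by -0.10 ± 0.06 in the PAC mean, and Nebl, which encodes nebulette at the Z-disc, by 0.04 ± 0.07. The other probe set of Nebl gave -0.01 and that of Tmod1 -0.26 in the same comparison, without a test.

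In the Z-disc, the titin cap Tcap rose at 1 and 6 weeks of PAC, the LIM protein Pdlim5 rose in the PAC mean, and Synpo2 fell. Tcap, telethonin, ties the ends of 2 titin molecules together. It was 10.89 and 10.85 in sham RV, 11.44 and 11.24 at 1 week of PAC, 10.57 and 10.61 at 3 weeks, 11.32 and 11.25 at 6 weeks, 10.80 and 10.54 in sham LV, and 10.90 and 10.99 after TAC. The 1 and 6 week arrays lay above sham RV and the 3 week arrays below it, and the TAC arrays lay above the sham LV arrays.

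The differences of Tcap were 0.47 ± 0.10 at 1 week (limma adjusted p = 0.0187), -0.28 ± 0.10 at 3 weeks (adjusted p = 0.111) and 0.41 ± 0.10 at 6 weeks (adjusted p = 0.0370). Set directly against 1 week, 3 weeks was lower by -0.75 ± 0.10 (adjusted p = 0.0479), the only member that passed between PAC times (0.0552% of all genes passed from 1 to 3 weeks). This comparison was chosen after the values were seen, and the call was lost in 14 of 19 alternatives, among them each single array left out but PAC 1 week array 1, with adjusted p up to 0.58. From 3 to 6 weeks the difference was 0.69 ± 0.10 (adjusted p = 0.144), in which comparison 0 members and 0.0201% of all genes passed. The 1 week call was lost in 5 alternatives and the 6 week call in 8, with the difference between 0.35 and 0.57 in all of them. With only the arrays compared both calls were lost (limma adjusted p = 0.0747 and 0.0547), and with loess scaling the 6 week call was lost (0.061). At 1 week it was lost without PAC 1 week array 2 (adjusted p = 0.0504), sham RV array 1 (0.060) or 2 (0.091), or the 3 arrays high in atrial markers (0.058). At 6 weeks it was lost without PAC 6 week array 1 (0.091) or 2 (0.20), sham RV array 1 (0.10) or 2 (0.15), or either TAC array (0.058). Without the 3 arrays high in atrial markers the step from 1 to 3 weeks was -0.87 (adjusted p = 0.25), and with a replicate block it was -0.75 (0.055).

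Pdlim5, also called ENH, links protein kinase C to the Z-disc. It measured 11.88 on both sham RV arrays, 12.06 and 12.45 at 1 week of PAC, 12.28 and 12.29 at 3 weeks, 12.22 and 12.34 at 6 weeks, 12.04 and 12.15 in sham LV, and 12.17 and 12.25 after TAC. Sham RV lay below all 10 other arrays, and the single times gave 0.38, 0.41 and 0.40 (± 0.12). The mean of 0.39 ± 0.10 passed (limma adjusted p = 0.0194) and the single times did not (adjusted p = 0.0511, 0.0660 and 0.0596). The call on the mean was lost without sham RV array 1 (adjusted p = 0.093) or array 2 (0.12).

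Synpo2, synaptopodin 2 or myopodin, is an actin-bundling Z-disc protein also made by smooth muscle. It measured 9.18 and 9.20 in sham RV, 8.79 and 8.61 at 1 week of PAC, 9.00 and 8.75 at 3 weeks, 8.76 and 8.93 at 6 weeks, 8.95 and 8.96 in sham LV, and 8.91 and 8.81 after TAC. Sham RV lay above all 10 other arrays. The difference was -0.49 ± 0.11 at 1 week (limma adjusted p = 0.0188) and -0.38 ± 0.09 in the PAC mean (adjusted p = 0.0159), with -0.31 and -0.35 at 3 and 6 weeks (adjusted p = 0.0927 and 0.0680). With only the arrays compared, the 1 week difference did not pass (limma adjusted p = 0.070). The 1 week call was lost without PAC 1 week array 2 (-0.40, adjusted p = 0.12) and without sham RV array 1 (0.062) or 2 (0.090), and without the 3 arrays high in atrial markers (-0.40, adjusted p = 0.12). The call on the mean was lost without sham RV array 1 (0.074), sham RV array 2 (0.11) or the 3 arrays high in atrial markers (0.054). Of 12 smooth muscle and pericyte markers 2 rose and 1 fell at 1 week, and their mean ran from 8.48 to 8.79 on the RV arrays.

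Its paralog Synpo2l moved the other way in value at 1 and 6 weeks, by 0.26 ± 0.13 and 0.44 ± 0.13, and did not pass (limma adjusted p = 0.175 and 0.0623). At 3 weeks Synpo2l stood at -0.01 ± 0.13. Flnc, filamin C, crosslinks actin at the Z-disc and was 9.98 and 10.13 in sham RV, 10.28 and 11.21 at 1 week of PAC, 10.52 and 10.32 at 3 weeks and 10.48 and 10.84 at 6 weeks, with 10.27 and 10.30 in sham LV and 10.64 and 10.55 after TAC. Both sham RV arrays were again the lowest, but the 1 week arrays were 0.93 apart and the mean of 0.56 ± 0.19 did not pass (adjusted p = 0.0560). Pdlim3, the actinin-associated LIM protein, had the widest gap between mates, 1.10 at 1 week, and a mean of 0.33 ± 0.23. The fibroblast markers rose over the same arrays, from 9.32 and 9.37 in sham RV to between 10.14 and 11.23 under PAC, with 10.34 and 11.23 on the 1 week arrays. Their part in these values was not tested.

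The core Z-disc genes did not pass. Actn2, the alpha-actinin that crosslinks thin filaments, differed by 0.13 ± 0.07 in the PAC mean, Ldb3, or cypher, by -0.09 ± 0.06, and Mypn, myopalladin, by 0.01 ± 0.08. Myoz2, the cardiac calsarcin that holds calcineurin at the Z-disc, differed by 0.11 ± 0.06, while its skeletal relative Myoz1 ranged from 5.61 to 6.08, near background.

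Of the intermediate filament, heat shock and assembly proteins 0 of 7 passed. Des, the muscle intermediate filament desmin, differed by 0.22 ± 0.11 in the PAC mean, and Hspb7, a small heat shock protein of the sarcomere, by 0.29 ± 0.10 (limma adjusted p = 0.152 and 0.0585). Cryab, the chaperone of desmin, was the nearest to a fall at -0.20 ± 0.07 (adjusted p = 0.0533), with 11.75 and 11.64 in sham RV and 11.41 to 11.58 on the PAC arrays. The myosin chaperone Unc45b stood at -0.16 ± 0.09, the methyltransferase Smyd1, which assists myosin folding, at 0.03 ± 0.08, the small muscle protein Smpx at -0.01 ± 0.09 and the LIM protein Fhl2 at 0.10 ± 0.07. Fhl2 was 12.60 and 12.58 in sham RV, below the 10 other arrays, whose lowest was 12.61.

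**Figure D3:**
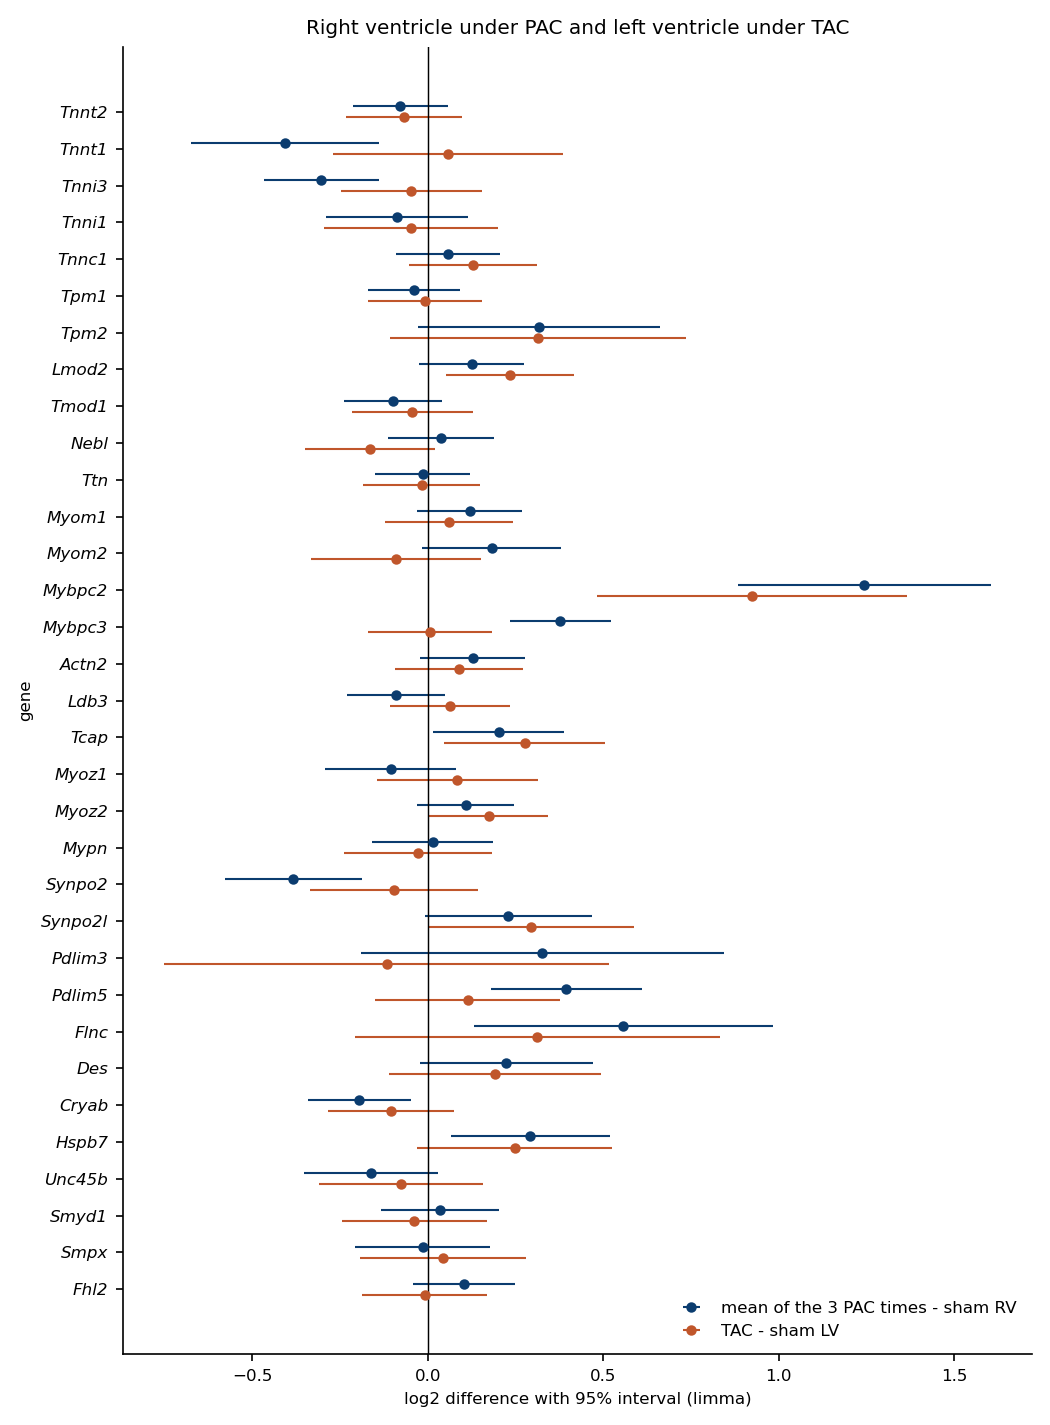
Log2 difference (horizontal axis) with its unadjusted 95% interval for each of the 33 genes (vertical axis), in blue for the mean of the 3 PAC times against sham RV and in orange for TAC against sham LV. Mybpc2 lies farthest to the right in both, and the intervals of Mybpc3 under PAC (0.23 to 0.52) and under TAC (-0.17 to 0.18) are apart, although the difference between the changes at 3 weeks did not pass.

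Separation of arrays was common among all genes and is read against that. At 1 week of PAC 14 members lay above sham RV without overlap and 9 below (26.4% and 36.7% of all genes), at 3 weeks 11 and 10 (25.5% and 35.7%), and at 6 weeks 17 and 11 (26% and 35.8%). Both sham RV arrays lay below the 10 other arrays for Myom2, Mybpc2, Mybpc3, Pdlim5, Flnc and Fhl2 (12.4% of all genes) and above them for Tnnt1, Tnni3 and Synpo2 (14.3% of all genes).

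Pressure load of the LV gave no call in the set. Under TAC 0 of 33 members passed limma, as did 0% of all genes, and at an unadjusted p under 0.05 there were 5 members and 963 of all genes (4.83%). The 5 were Mybpc2, Tcap at 0.28 ± 0.10, Lmod2 at 0.23 ± 0.08, Synpo2l at 0.30 ± 0.13 and Myoz2 at 0.17 ± 0.08, all positive. TAC arrays lay above sham LV without overlap for 15 members and below for 5 (18.2% and 23.1% of all genes). The 95% interval lay within 0.5 of no change for 26 members (85% of all genes).

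Between the unloaded chambers 0 members passed limma (0.411% of all genes), with 5 at an unadjusted p under 0.05 (20.7% of all genes). These were Mybpc3 and Mybpc2, lower in RV by -0.43 ± 0.08 and -0.72 ± 0.20 (limma adjusted p = 0.0503 and 0.0974), Fhl2 at -0.24 ± 0.08, Tnnt1 at 0.42 ± 0.15 and Myoz1 at 0.28 ± 0.10. Of the 5 proteins of titin, the M-band and the thick filament, Myom2 stood at -0.21 ± 0.11, and Ttn and Myom1 lay so close to 0 that their sign turned with loess scaling. Sham RV lay above sham LV without overlap for 6 members and below for 10 (29.3% and 26.1% of all genes). Atrial markers were also lower in sham RV, with a median of -1.35 over 8 genes and 0 passing, and their part in these values was not tested.

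The PAC change less the TAC change at 3 weeks likewise gave 0 members past limma (0% of all genes), with 4 at an unadjusted p under 0.05 (11.9% of all genes). They were Tcap at -0.55 ± 0.15, Tnnt1 at -0.47 ± 0.21, Mybpc3 at 0.35 ± 0.11 and Tnni3 at -0.28 ± 0.13 (limma adjusted p = 0.354, 0.414, 0.366 and 0.417). From 1 to 6 weeks of PAC 0 members passed (0.0953% of all genes), with 1, Mybpc2, at an unadjusted p under 0.05 (9.75% of all genes).

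Genes of the sarcomere outside the set also passed under PAC. Over all genes, 18.4%, 5.76% and 9.25% passed at 1, 3 and 6 weeks, with 9.57%, 3.22% and 5.52% higher. Of 37 other Z-disc, M-band and costamere genes 10 rose and 2 fell at 1 week, 4 and 1 at 3 weeks, and 8 and 2 at 6 weeks, with medians of 0.14, 0.02 and 0.13. Nrap, which acts in myofibril assembly, rose by 0.50, 0.44 and 0.82 (± 0.11), and the stretch-responsive titin-binding repeats Ankrd1 by 0.99, 1.05 and 1.21 (± 0.22) and Ankrd23 by 0.90, 0.91 and 1.21 (± 0.19). Capza1, a subunit of the protein that caps thin filaments at the Z-disc, rose by 0.57, 0.59 and 0.51 (± 0.12). After TAC 0 of the 37 passed.

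Of 13 other thin and thick filament isoforms 4 rose and 3 fell at 1 week, 1 and 2 at 3 weeks, and 1 and 3 at 6 weeks. The fast skeletal troponin I gene Tnni2 fell by 0.59, 0.53 and 0.43 (± 0.11 each), and Tmod4, the skeletal tropomodulin, was lower by -0.92 at 1 week and -0.82 at 6 weeks, with -0.78 at 3 weeks, which did not pass (± 0.20 each, limma adjusted p = 0.0505 at 3 weeks), at 9.01 and 9.02 on the sham RV arrays against 7.71 to 8.47 on the PAC arrays. The broadly expressed Tmod3 rose by 0.49, 0.48 and 0.55 (± 0.11), while the member Tmod1 stood at -0.05, -0.14 and -0.11 (± 0.08). Mybphl, an atrial relative of myosin-binding protein C and one of the atrial markers, rose by 1.98 ± 0.50 at 1 week.

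Of 7 myosin chain genes 3 rose and 1 fell at 1 week, 2 rose at 3 weeks and 1 at 6 weeks, and of 3 actin genes 2, 2 and 1 rose. The skeletal actin Acta1 rose by 2.49, 2.01 and 2.26 (± 0.31), while the main cardiac actin Actc1 stood at 0.04, 0.06 and 0.03 (± 0.07). Acta1 was 12.02 and 11.71 in sham LV and 13.29 and 13.16 after TAC, where 0 of the 3 actin genes passed. Of 18 genes of sarcomere quality control 1 rose and 1 fell at 1 week, 1 rose at 3 weeks and 2 at 6 weeks. The ubiquitin ligase subunit Fbxo32, or atrogin-1, rose at each time, by 0.39, 0.42 and 0.65 (± 0.10).

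**Figure D4:**
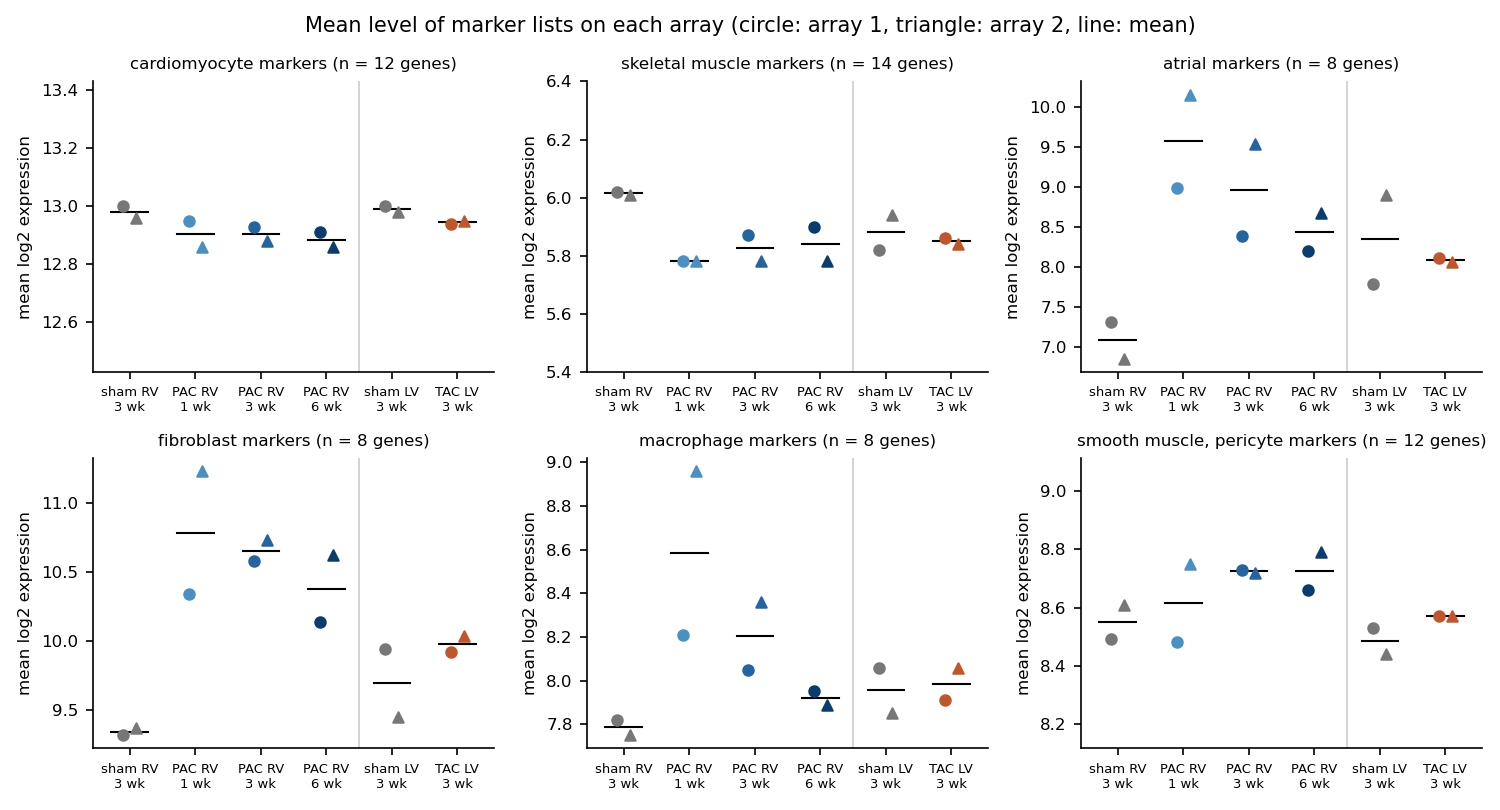
Mean log2 expression (vertical axis) of 6 marker lists on every array, by group (horizontal axis), with a circle for array 1, a triangle for array 2 and a line at their mean. Cardiomyocyte markers stay between 12.86 and 13.00, skeletal markers are highest in sham RV at 6.02 and 6.01, and atrial markers reach 10.16 on array 2 of PAC at 1 week.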

How the data were processed

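Expression was measured on 12 Affymetrix arrays in 6 groups of 2. The values are log2 expression levels deposited by the authors, made with RMA in Affymetrix Power Tools per the submitters' processing notes, and no source used here gives the software version, library files or genome build. RMA corrects background array by array and fits quantile scaling and probe effects over all arrays together, and it compresses low levels. The number of arrays limits the precision. Of 35556 probe sets, 21789 were annotated to a single gene, 1621 to several and 12146 to none, and only the first kind was named. For the 999 genes with several probe sets the one with the highest mean was used, which gave 19938 genes.

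In limma 3.58.1 (R 4.3.3) each gene got 1 mean for every group over the 12 arrays, with 6 residual and 4.6 prior degrees of freedom, and Benjamini-Hochberg adjustment ran over all genes. There were 8 planned comparisons and 2 added after the values were seen (PAC 3 weeks against 1 week and 6 weeks against 3 weeks). Every member is accounted for, and members that passed get their value on each array. From each of the 12 other lists up to 4 genes are named. In those lists 136 genes were analysed. The members and lists were chosen with earlier results of these data known. Alternatives were loess scaling, the mean over probe sets, no genes below the median level, a trended and robust prior, only the arrays compared, a replicate block, each array left out in turn, and, added after seeing the data, the 3 arrays high in atrial markers left out.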

Additional observations from a re-analysis of the deposited data

Results flagged for a closer look

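For 3 genes the arrays separated in opposite directions under PAC and TAC at 3 weeks, with PAC below sham RV and TAC above sham LV, as they did for 3.44% of all genes. The difference between the changes was tested as an interaction in limma and passed for none of the 3. For Tcap the PAC change less the TAC change was -0.55 (adjusted p = 0.354), for Tnnt1 it was -0.47 (adjusted p = 0.414) and for Ldb3, the Z-disc protein cypher, it was -0.17 (adjusted p = 0.520). Tcap had a PAC value of -0.28 ± 0.10 and a TAC value of 0.28 ± 0.10. Ldb3 had 11.15 and 11.21 in sham RV, 11.13 and 11.01 at 3 weeks of PAC, 11.15 and 11.16 in sham LV and 11.22 and 11.21 after TAC, so its separation rests on gaps under 0.1.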

How the results depend on the processing

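The 15 calls on single members were each recomputed in 19 alternatives, which gave 285 values: 214 kept the call, 71 lost it and 0 changed direction. With 2 arrays a group, the number of members called moved more than their values did. Leaving out each array in turn gave 1 to 10 members at 1 week of PAC (4 with all arrays), 0 to 4 at 3 weeks (1), 0 to 8 at 6 weeks (3), 1 to 11 in the PAC mean (6), 0 to 1 for 6 against 1 week (0), 0 to 2 for the sham chambers (0), 0 to 3 for 3 against 1 week (1), and 0 for 6 against 3 weeks, TAC and the interaction. At 1 week the count was 1 without PAC 1 week array 2 or either sham RV array and 10 without PAC 1 week array 1, and in the PAC mean it was 2 without sham RV array 1, 1 without sham RV array 2 and 11 without PAC 1 week array 1. At 6 weeks it was 0 without PAC 6 week array 2 or either sham RV array and 8 without either PAC 1 week array. A group left with 1 array is assumed to vary like the others.

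Loess scaling gave 5 members at 6 weeks of PAC, 2 higher and 3 lower. The trended and robust prior gave 3 at 3 weeks, 10 at 6 weeks, 2 between the sham chambers and 1 for 6 against 3 weeks. Leaving out genes below the median level, which drops Tnni1 and Myoz1, gave 3 at 3 weeks, 9 at 6 weeks, 9 in the PAC mean, 1 between the sham chambers and 2 for 3 against 1 week. At 6 weeks the trended prior gave 7 higher and 3 lower, and leaving out low genes 6 and 3. The mean over probe sets gave 3 higher and 0 lower there, and the replicate block 5 and 0. Fitting only the arrays compared gave 1 at 1 week and 0 for 3 against 1 week. Without the 3 arrays high in atrial markers, chosen after seeing the data, the counts were 1 at 1 week, 0 at 3 weeks, 5 at 6 weeks and 0 for 3 against 1 week. The mean over probe sets moved no count by more than 1.5 times. Apart from fewer genes or arrays tested, the cause of these moves was not tested.

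The replicate numbers were not taken to pair the samples, since deviations of same-numbered arrays correlated between -0.24 and 0.37 and those of sham RV with PAC at 0.02, -0.09 and -0.07. Among the 3 PAC groups they correlated at 0.26, 0.37 and 0.26, and array 2 was the higher in atrial markers at each PAC time. The replicate block gave 2 members at 3 weeks, 5 at 6 weeks and 0 for 3 against 1 week, with 6 at 1 week and 8 in the PAC mean. Loess scaling turned the sign of 5 members in the PAC mean, all of them uncalled. Signal near background limits Tnni1 and Myoz1. Mybpc2 was also low in sham RV, at 6.77 and 6.97 beside array medians of 6.32 to 6.4.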
